A study of Mus musculus with 4 samples.

Results

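The genes described here are 9 repressors and corepressors of neuronal fate: the zinc finger factors Myt1, Myt1l and St18, the zinc finger factors Insm1, Scrt1 and Scrt2, the repressor Rest, and the corepressors Rcor1 and Rcor2. They were taken as every probe set whose platform annotation gave exactly 1 of these symbols, which found all 9 genes among the 18193 on the array, with 25 of the 45037 probe sets. A probe set is a group of short oligonucleotides on the array that reads 1 transcript or a few related ones. Whole brains were taken from embryonic day 14.5 mice of mixed 129SvJ/C57Bl/6J background, and RNA of each of 2 genotypes was hybridised to 2 Affymetrix arrays. Control embryos carried Sox4 flox/flox and Sox11 flox/flox, that is, floxed alleles without a Cre recombinase. Double-knockout embryos carried the same floxed alleles with Brn4::Cre, a Cre driver named for the gene Pou3f4 (Brn4), so Sox4 and Sox11 could be deleted only in cells with a history of that driver. Sox4 and Sox11 are SoxC transcription factors that act in young neurons. The spinal cord is named in the series title and whole brain in every sample label, and the labels give neither the sex of the embryos nor whether an array held 1 embryo or a pool. The sample titles call the 2 arrays of each genotype biological replicates, without saying what each array held. The p-values therefore measure the spread between these arrays, which may be partly technical.

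A neural progenitor that becomes a neuron has to silence progenitor and non-neural genes and release neuronal ones. REST binds a DNA element called RE1 in neuronal genes and holds them off in non-neural cells and progenitors, through the CoREST proteins RCOR1 and RCOR2, histone deacetylases and the demethylase KDM1A, and its loss opens these genes as neurons form. MYT1, MYT1L and ST18 form a family with zinc fingers of the CCHHC type. MYT1 and MYT1L repress Notch targets and non-neuronal programmes in young neurons. INSM1 acts in newborn neurons and in dividing basal progenitors, and SCRT1 and SCRT2 are Snail-type repressors of young neurons that act in migration. INSM1 and the Scratch proteins share the SNAG domain, a short amino-terminal repressor motif that can recruit KDM1A.

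The values are MAS5 signals, on a linear scale that the authors had set to the same trimmed mean on every array. Changes are differences of log2(signal + 16), knockout minus control, from a limma fit over all probe sets with a mean above the 40th percentile, and "rose" and "fell" mean a Benjamini-Hochberg adjusted p under 0.05 over the 27022 probe sets tested. That fit called 23.2% of all tested probe sets, 11.7% of them upward and 11.6% downward. Median signals of the 4 arrays lay between 262.6 and 287.6. All 6 Sox11 probe sets fell. Of the 6 tested Sox4 probe sets 4 fell, 1 rose and 1 did not pass. The 1 that did not pass, 1433575_at, was the brightest (36048 and 34819 in controls, 37277 and 38263 in knockouts). Read at its brightest probe set alone, Sox4 would thus not pass. Whether a given probe set reads a deleted part was not examined, and one outside it checks nothing. The driver's namesake Pou3f4 changed by -0.10 ± 0.15 on the log2 scale (SE; limma adjusted p = 0.682). Markers of neurons and progenitors were read in both genotypes. All 12 neuronal and all 11 progenitor markers examined were above the cutoff signal of 154.6 on each of the 4 arrays. The lowest of these signals was 526.5, for Hes1 in control 2.

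The Myt1 family split in direction. Myt1l and Myt1 fell in the knockout brains, and St18, the third gene of the family, rose. The Scratch genes Scrt1 and Scrt2 fell. Insm1, Rest, Rcor1 and Rcor2 did not pass at any of their 8 tested probe sets in limma, nor in its fits without a variance trend or with a robust one, and 2 of the 8 had an unadjusted p under 0.05. In bulk tissue, fewer cells of a type and less RNA per cell cannot be told apart. Over the 18 member probe sets bright enough to be tested, 7 fell, 2 rose and 9 did not pass. The 7 include Scrt2 1457310_x_at, which was bright enough only through its controls. Read at the brightest probe set of each gene, 4 of the 9 genes fell and 1 rose. Of the 12489 genes read this way 27.3% changed, 11.0% downward and 16.3% upward. The 2 genotypes did not overlap at 15 of the 18 tested member probe sets, which was also so at 62.9% of all tested probe sets. At 10 of these 15 the knockouts were below the controls and at 5 above. The median log2 change of the 18 was -0.35, and that of all tested probe sets was -0.01. The remaining 7 member probe sets were too dim for the filter. Several probe sets read the same gene, so these counts are not counts of independent events.

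**Figure D1:**
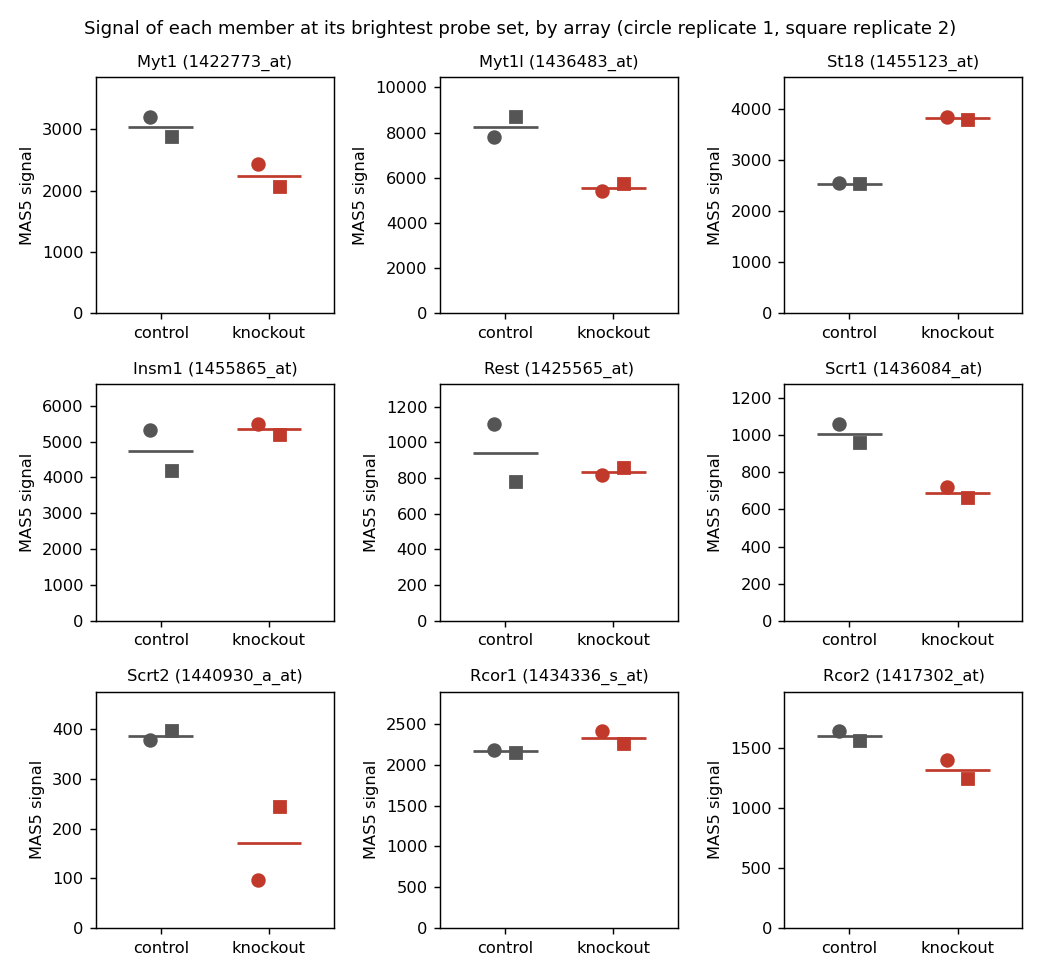
MAS5 signal (vertical axes, linear, starting at 0) of each of the 9 genes at its brightest probe set on the 2 control and 2 knockout arrays, with horizontal bars at the group means. St18 lies higher on both knockout arrays, Myt1, Myt1l, Scrt1, Scrt2 and Rcor2 lie lower, Rcor1 lies slightly higher, and the groups overlap for Insm1 and Rest.

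MYT1L is a repressor that neurons keep for life and that serves in reprogramming other cells into neurons. Its brightest probe set, 1436483_at, read 7812 and 8713 in the controls and 5409 and 5709 in the knockouts. Both knockout signals were lower than both control signals, and the mean went from 8263 ± 637 to 5559 ± 212 (SD, n = 2 each). On the log2 scale this change was -0.57 ± 0.08 (SE; limma adjusted p = 0.00124), or 1.48-fold lower. Probe set 1421175_at read 5711 and 5343 in controls and 4209 and 3492 in knockouts (log2 change -0.53 ± 0.10, adjusted p = 0.00552), and did not pass without the variance trend (adjusted p = 0.0712). Probe set 1429738_at read 2088 and 1898 in controls and 1358 and 1166 in knockouts (-0.65 ± 0.12, adjusted p = 0.00421). The groups were apart at all 3, which fell by 1.44-fold to 1.57-fold. The fourth tested Myt1l probe set, 1430599_at, also had both knockout arrays below both controls, 853.4 and 639.8 against 426.5 and 603.1. It did not pass (log2 change -0.53 ± 0.20, adjusted p = 0.0856), and its arrays spread more within each group. Without control 2 it passed (-0.73, adjusted p = 0.0158). The fifth, 1460111_at, was under the filter, and its groups overlapped. At the brightest probe set the fall passed with each of the 4 arrays left out in turn, with log2 changes of -0.65 to -0.49.

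MYT1 is the founding member of the family and marks progenitors leaving the cell cycle. Its single tested probe set, 1422773_at, read 3204 and 2868 in the controls and 2436 and 2050 in the knockouts. The groups did not overlap, and the mean went from 3036 ± 237 to 2243 ± 273 (SD, n = 2 each), a change of -0.44 ± 0.12 in log2 units (SE; limma adjusted p = 0.0214). The fall did not pass without control 1 (-0.36, adjusted p = 0.103) or without knockout 2 (-0.31, adjusted p = 0.133). A dim Myt1 probe set under the filter, 1439365_at, read 120.0 and 55.9 in controls and 34.7 and 18.1 in knockouts, also apart. Without the filter its log2 change of -1.25 ± 0.49 had an adjusted p of 0.17.

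ST18, also called MYT3, carries the same type of zinc finger as MYT1 and MYT1L. Its brightest probe set, 1455123_at, read 2540 and 2534 in the controls and 3848 and 3779 in the knockouts. The arrays of a group lay close together, and the mean went from 2537 ± 4.24 to 3813 ± 48.4 (SD, n = 2 each). The rise was 1.5-fold (0.58 ± 0.09 on the log2 scale, SE; limma adjusted p = 0.00164). The other St18 probe set, 1436793_at, read 871.6 and 813.6 in controls and 1288 and 1306 in knockouts (log2 change 0.61 ± 0.13, adjusted p = 0.0064). With each array left out in turn the rise at the brightest probe set passed every time, at log2 changes of 0.57 to 0.60. The dimmer St18 probe set no longer passed without knockout 2 (0.60, adjusted p = 0.0509).

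Promoters of Myt1 and Myt1l are shown because both genes fell. The promoter sequences at hand, from the mouse build GRCm38.p6, covered 10 start sites of 4 of the 9 genes. These were 3 for Myt1, 5 for Myt1l, 1 for Rcor1 and 1 for Rcor2. Promoters of St18, Insm1, Rest, Scrt1 and Scrt2 were not at hand, which says nothing about their annotation. The 250 bases before each start site were searched on both strands for ACAAT and ACAAAG, cores bound by SOX proteins, AAGTTT, a core bound by the MYT1 family, CAGGTG, an E-box bound by Snail-type factors, and TTCAGCACC and GGACAGCGC, the left and right parts of RE1. None of the 6 words overlaps another at the matches found. Over all 32851 promoters of this length, ACAAT was in 27.7%, ACAAAG in 16.5%, CAGGTG in 17.2%, AAGTTT in 12.8%, TTCAGCACC in 0.301% and GGACAGCGC in 0.304%. Capitals mark the matches. The Myt1 promoters with a match and the first listed Myt1l promoter, which has none, are printed.
Myt1 start site 1, chr2:181763082-181763331, plus strand: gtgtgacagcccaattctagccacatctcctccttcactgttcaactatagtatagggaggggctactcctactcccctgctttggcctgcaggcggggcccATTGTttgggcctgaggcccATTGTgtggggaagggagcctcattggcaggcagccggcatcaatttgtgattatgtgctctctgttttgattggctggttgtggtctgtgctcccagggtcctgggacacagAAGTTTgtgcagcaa
Myt1 start site 3, chr2:181796057-181796306, plus strand: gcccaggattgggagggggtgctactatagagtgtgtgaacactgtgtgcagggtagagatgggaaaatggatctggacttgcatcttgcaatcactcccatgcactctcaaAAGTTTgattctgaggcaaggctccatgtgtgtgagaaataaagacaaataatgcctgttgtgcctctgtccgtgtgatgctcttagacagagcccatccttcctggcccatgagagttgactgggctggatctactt
Myt1l start site 1, chr12:29528134-29528383, plus strand: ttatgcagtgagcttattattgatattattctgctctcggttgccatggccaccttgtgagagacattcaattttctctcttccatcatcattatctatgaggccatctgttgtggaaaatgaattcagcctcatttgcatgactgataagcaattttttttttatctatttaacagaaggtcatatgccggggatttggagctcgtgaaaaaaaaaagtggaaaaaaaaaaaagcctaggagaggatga
The first Myt1 start site had ACAAT on the minus strand at 148 to 144 and again at 128 to 124 bases before the start, and AAGTTT at 15 to 10 bases before it. The third had AAGTTT at 138 to 133 bases before the start. No other of the 10 promoters held any of the 6 words. These matches describe letters only, and no binding was measured.

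Of the 9 genes Scrt2 had the largest fall, at low signals. SCRT2 is found in newly postmitotic cells of the developing nervous system. Its brightest probe set, 1440930_a_at, read 377.9 and 396.6 in the controls and 97.1 and 244.0 in the knockouts. The controls lay close together while the knockouts differed from each other, and the mean went from 387.2 ± 13.2 to 170.6 ± 104 (SD, n = 2 each). The log2 change was -1.23 ± 0.34 (SE; limma adjusted p = 0.0265). Probe set 1457310_x_at read 257.4 and 283.6 in controls and 139.9 and 101.3 in knockouts (log2 change -1.08 ± 0.27, adjusted p = 0.0177). Both of its knockout signals were under the filter's cutoff signal of 154.6, so it was tested only through its controls. Another, 1440931_at, was under the filter at 220.1 and 217.7 in controls and 142.5 and 60.1 in knockouts. The order of the knockout arrays differed among these probe sets, knockout 1 being lower at the first and knockout 2 at the other two. These 3 probe sets were made from 1 source transcript, and the suffixes a and x mark probes that can read several transcripts, so they are not separate evidence. The fourth, 1446986_at, gave 2.7 to 15.9 on the 4 arrays and its groups overlapped. At its brightest probe set, the fall of Scrt2 was lost without knockout 1 (-0.63, adjusted p = 0.135), and at 1457310_x_at it was lost without knockout 2 (-0.88, adjusted p = 0.101).

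SCRT1 is the Scratch protein that continues in more mature neurons. Its probe set 1436084_at read 1062 and 956 in the controls and 722 and 659.9 in the knockouts. Both knockouts were below both controls, and the mean went from 1009 ± 75.2 to 691 ± 43.9 (SD, n = 2 each), or by -0.54 ± 0.14 in log2 units (SE; limma adjusted p = 0.0197). The fall was 1.45-fold. The fall passed without control 2 (-0.61, adjusted p = 0.0196), but not without control 1 (-0.46, adjusted p = 0.0899), knockout 1 (-0.60, adjusted p = 0.0644) or knockout 2 (-0.47, adjusted p = 0.108). The other Scrt1 probe set, 1421368_at, was under the filter, and its groups overlapped.

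Insm1, the remaining zinc finger factor with a SNAG domain, did not pass the test. Its brightest probe set, 1455865_at, read 5316 and 4186 in the controls and 5499 and 5190 in the knockouts. The groups overlapped (log2 change 0.18 ± 0.11, SE; limma adjusted p = 0.283), with an unadjusted 95% interval of -0.07 to 0.43. The value rested on the controls, at 0.35 without control 1 (adjusted p = 0.0568) and 0.0071 without control 2 (adjusted p = 0.977). At 1421399_at the signals were 3446 and 3095 in controls and 4468 and 3487 in knockouts. Here the knockouts were above the controls by a small margin (log2 change 0.27 ± 0.12, adjusted p = 0.138). Without knockout 2, this second probe set passed (0.45, adjusted p = 0.045). The interval of the brightest probe set allows a rise of about the size that Myt1 fell, so these values do not show that Insm1 was equal in the 2 genotypes.

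REST is the RE1-binding repressor. Of its 4 probe sets 2 were bright enough to be tested, and neither passed. The brightest, 1425565_at, read 1104 and 775.9 in the controls and 818.8 and 853.7 in the knockouts. The controls differed more from each other than the group means did (log2 change -0.14 ± 0.17, SE; limma adjusted p = 0.585; unadjusted 95% interval -0.52 to 0.23). Its sign turned without control 1 (0.11, adjusted p = 0.755). Probe set 1428227_at, made from another source transcript, read 1043 and 955.6 in controls and 671.7 and 808.9 in knockouts. There the groups were apart, and the change of -0.43 ± 0.15 just missed the threshold (adjusted p = 0.0569). It passed where the filter stood at the 60th percentile (adjusted p = 0.0458). A dim probe set under the filter, 1425566_at, read lower in the knockouts, 135.5 and 133.9 in controls and 20.7 and 76.0 in knockouts. The dimmest, 1425564_at, went the other way, at 4.3 and 2.4 in controls and 6.8 and 5.9 in knockouts.

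The CoREST proteins RCOR1 and RCOR2 are scaffolds that join REST or SNAG-domain factors to KDM1A and histone deacetylases. Rcor2, the form enriched in neural progenitors and stem cells, read 1644 and 1558 in the controls and 1401 and 1242 in the knockouts at its only probe set, 1417302_at. The groups were apart, but the change did not pass (log2 change -0.28 ± 0.12, SE; limma adjusted p = 0.123). Rcor1, the widely expressed form, read 2189 and 2144 in controls and 2418 and 2257 in knockouts at 1434336_s_at (0.11 ± 0.10, adjusted p = 0.485). Its other probe sets gave log2 changes of 0.23 ± 0.13 at 1454932_at and -0.13 ± 0.16 at 1437545_at (adjusted p = 0.222 and 0.611). Of the 6 genes with several tested probe sets, Rcor1 was the only one whose probe sets differed in sign, and none of its probe sets passed.

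**Figure D2:**
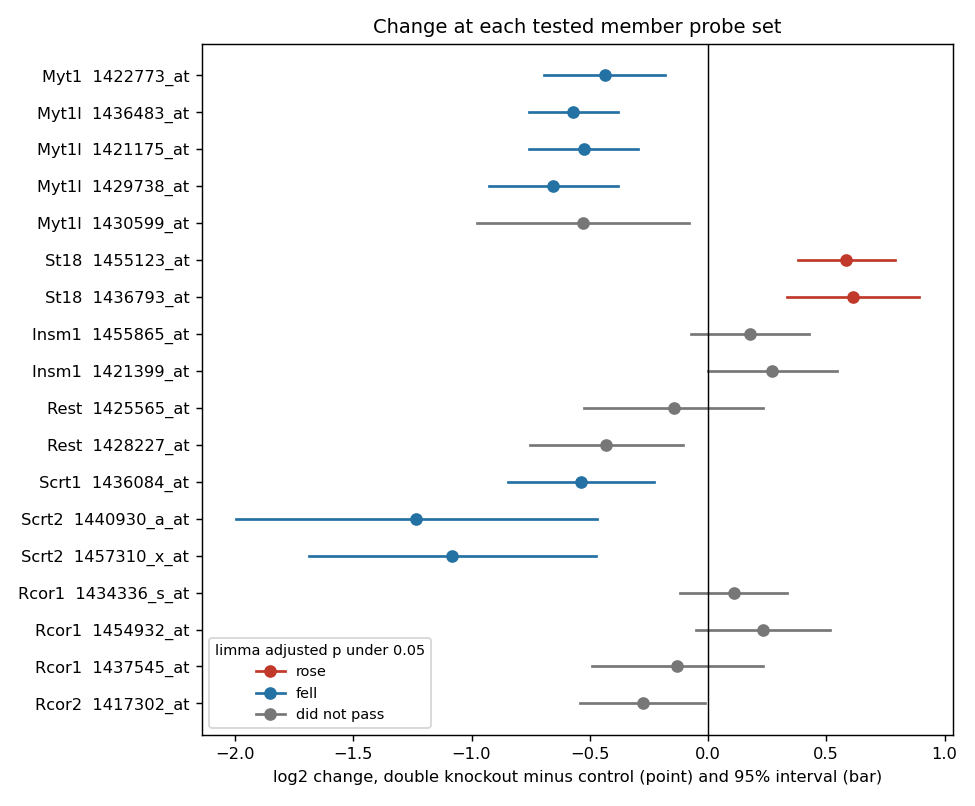
Log2 change, knockout minus control, at each of the 18 tested probe sets of the 9 genes (points), with unadjusted 95% intervals from the limma fit (bars), coloured by the adjusted call. The Myt1, Myt1l, Scrt1 and Scrt2 points lie left of 0, both St18 points lie right of it, and those of Insm1, Rest, Rcor1 and Rcor2 are grey.

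**Figure D3:**
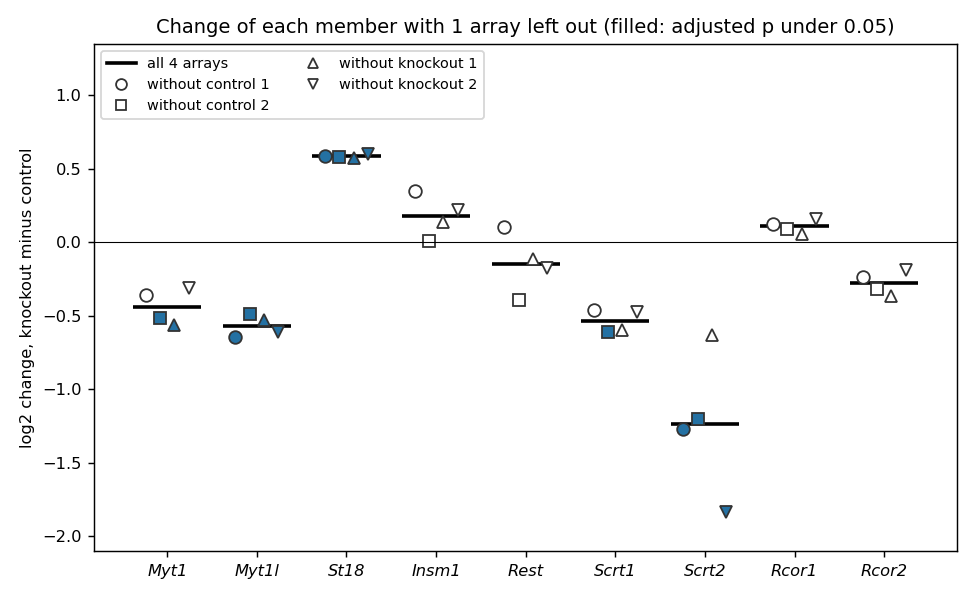
Log2 change of each gene at its brightest probe set with all 4 arrays (black bars) and with 1 array left out (symbols, filled where the adjusted p was under 0.05). Myt1l and St18 are filled with every array left out, Scrt2 moves most, from -1.83 to -0.63, and Rest crosses 0.

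The partners through which these factors act were read from a list of REST corepressors and regulators. Of 26 tested genes 5 fell, 3 rose and 18 did not pass, and the median log2 change was -0.12, against 0.06 over all genes at their brightest probe sets. So 8 of the 26 passed, a share near the 27.3% of all genes, and the count is not a result about these partners. Ezh2, the methyltransferase of Polycomb complex PRC2, fell by a log2 change of -0.67, Ehmt1, a histone methyltransferase, by -0.51, and Smarca4, the ATPase of the BAF remodelling complex, by -0.48. Hdac2, a histone deacetylase, fell by -0.44. Kdm1a, the demethylase that binds CoREST and SNAG domains, read 12011 and 13021 in the controls and 9859 and 8775 in the knockouts. It was lower on both knockout arrays (log2 change -0.43 ± 0.08, SE; limma adjusted p = 0.0045). The 3 that rose were Ctdspl (0.79) and Ctdsp2 (0.33), phosphatases that act with REST, and Hdac1 (0.59). Hdac1 read 3357 and 3442 in controls and 4741 and 5551 in knockouts, while its paralog Hdac2 read 14686 and 15864 in controls and 11028 and 11415 in knockouts. So Hdac1 rose and Hdac2 fell. Without the variance trend only Ezh2 of the 5 passed (-0.67), and Kdm1a had an adjusted p of 0.0844. Ctdspl did not pass without knockout 2 (0.71), nor Ctdsp2 without control 1 (0.33), control 2 (0.34) or knockout 1 (0.28). Srrm4, a splicing factor that inactivates Rest in neurons, had a log2 change of -0.34 (adjusted p = 0.0837), and passed without control 1 (-0.48, adjusted p = 0.0309). Hdac2 and Kdm1a complete the count of 5, and Srrm4 was named after its value was seen.

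Most neuronal genes with a known RE1 element did not pass. Of 41 tested 8 rose, 5 fell and 28 did not pass, and their median log2 change was 0.13. Among all genes 16.3% rose and 11.0% fell, so both counts were near the background. The largest rises were those of Vgf, a secreted neuropeptide precursor (log2 change 1.16), Scg2, a granin of dense-core vesicles (1.14), and Syp, a synaptic vesicle protein (0.90). Scg2 read 3339 and 3912 in the controls and 7804 and 8164 in the knockouts. The largest falls were those of Tubb3, a neuronal tubulin (-0.75), Chrnb2, a nicotinic receptor subunit (-0.73), and Nefm, a neurofilament (-0.73). Cdk5r1, an activator of a neuronal kinase (-0.59), and Stmn2, a microtubule regulator (-0.38), also fell and complete the count. Without the variance trend 5 rose and 4 fell, Stmn2 being the one lost (adjusted p = 0.0831). In the trend fit of limma 23 of the 41 had an unadjusted p under 0.05, 8 of them with a negative change. Tubb3, Nefm, Stmn2 and Snap25 are also among the neuronal markers counted below.

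Genes of a Notch list, which MYT1 factors repress or which were studied with them, mostly did not pass. Id1, Id2, Id3, Numb and Numbl are also on this list, so not every gene on it is one that MYT1 factors repress. Of 22 tested 2 rose, 3 fell and 17 did not pass, with a median log2 change of 0.09. The 5 that passed are a share near the 27.3% of all genes. Hes1, a Notch target that MYT1 represses, read 648.4 and 526.5 in the controls and 646.2 and 595.3 in the knockouts (log2 change 0.08 ± 0.16, SE; limma adjusted p = 0.754). Hes5 and Notch1 had log2 changes of -0.17 (adjusted p = 0.582) and 0.34 (adjusted p = 0.0503). Notch1 passed in 7 of 14 alternative settings, counting the threshold of 0.1, and its log2 change was 0.45 without control 1. Id2 (0.50) and Id3 (0.37), inhibitors of bHLH factors, rose. Numbl, a regulator of Notch (-0.48), Rbpj, the DNA-binding partner of Notch (-0.36), and Maml1, its coactivator (-0.35), fell. These counts were not stable. Only 1 fell without control 1, control 2 or knockout 1 and 0 without knockout 2, only 1 rose without control 2 or either knockout, and with no variance trend 0 passed in either direction, while 8 of the 22 had an unadjusted p under 0.05 in the trend fit. Hes1, Hes5 and Notch1 were named after their values were seen.

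Proneural and basal progenitor genes, among which INSM1 acts, moved in both directions. Of 19 tested 9 rose, 4 fell and 6 did not pass, with a median log2 change of 0.21. Among all genes 27.3% passed, 16.3% upward and 11.0% downward. The count of rises was not fixed either, at 6 of the 19 without the variance trend. Mfap4, a matrix protein (2.91), Neurod4, a proneural factor (1.78), and Eomes, which marks basal progenitors (1.08), had the largest rises. Eomes read 2532 and 1984 in the controls and 4879 and 4633 in the knockouts, while Insm1 in the same brains did not pass. Plekha1 (-0.56), Tbr1, a factor of early cortical neurons (-0.47), Cdkn1c, a cell cycle inhibitor (-0.28), and Elavl2, a neuronal RNA-binding protein (-0.25), fell. Plekha1 has no known place in this list, since the gene that INSM1 represses in cortex is Plekha7. Less Plekha1, 9 of 18 rose and 3 fell. Cdkn1c was lost without control 1 (-0.19), knockout 1 (-0.35) or knockout 2 (-0.22), and Elavl2 without control 1 (-0.26), control 2 (-0.24) or knockout 1 (-0.15). Of the list 2 fell when control 1 was left out, and 1 in the fit with no variance trend. The relatives of the Scratch and Insm proteins were dim, and of 10 such genes and Snail targets on the array 5 were tested. Only Zeb2, a zinc finger repressor of E-cadherin, rose (0.36). Among all genes 16.3% rose, so 1 of 5 is near the background. Zeb2 did not pass without control 1 (0.33), without knockout 2 (0.32) or with no variance trend. Cdh1 (E-cadherin), a target of Snail-type factors, had a log2 change of 0.27 ± 0.18 (adjusted p = 0.308), and Bbc3, a pro-apoptotic gene that Scratch proteins repress, a change of 0.44 ± 0.20 (adjusted p = 0.139), and both were named after their values were seen. Bbc3 read 631.7 and 613.2 in controls and 1062 and 676.2 in knockouts, and it passed without knockout 2 (0.76, adjusted p = 0.0347).

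**Figure D4:**
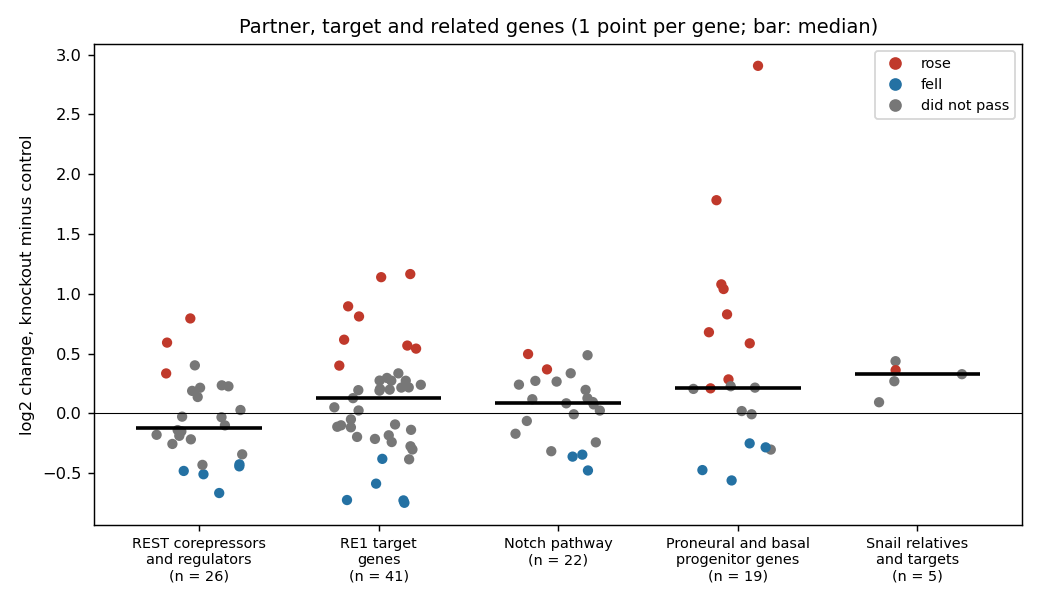
Log2 change, knockout minus control, of the tested genes of 5 lists at their brightest probe sets (1 point per gene, coloured by call), with black bars at the medians. The REST corepressor list has a median of -0.12 and the RE1 target list one of 0.13, and the proneural list reaches 2.91 at Mfap4.

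Cell type markers moved with genotype as well. For the counts below, 16.3% of all genes at their brightest probe sets rose and 11.0% fell. Of 12 neuronal markers 9 fell, 1 rose and 2 did not pass, with a median log2 change of -0.40. Their summed signal was 175282 and 183146 in the controls and 138887 and 134367 in the knockouts. Ina (-1.02), Tubb3 (-0.75) and Dcx (-0.73) fell most, and Snap25 rose (0.62). The falls of Myt1l (-0.57), Myt1 (-0.44) and Scrt1 (-0.54) lie within the range of these neuronal falls. The point value of Scrt2 (-1.23) lies beyond that range, but its unadjusted 95% interval of -2.00 to -0.47 reaches into it. At the same probe set the change of Scrt2 was -0.63 without knockout 1 and -1.83 without knockout 2. So whether Scrt2 fell more than the neuronal markers is not resolved. Of 11 progenitor markers 5 rose and 1 fell, with summed signals of 87740 and 82692 in controls and 94089 and 97008 in knockouts. Mki67 (0.76), Nes (0.61) and Top2a (0.53) rose most, and Prom1 fell (-0.77). Nes did not pass without knockout 1 (0.55), and 3 of the progenitor markers rose without control 2, without knockout 1 or without the variance trend. Without that trend 5 neuronal markers fell. All 16 tested microglia and macrophage markers rose, with Mpeg1 (2.35), C1qa (2.14) and C1qb (2.01) highest, and the summed signal of the 18 on the array went from 11530 and 12256 to 35868 and 33728. Without the variance trend 14 of the 16 rose. No marker of that list was listed at 0, and Trem2 and Itgam were under the filter. Of 11 mesenchymal and pericyte markers 5 rose, of 9 endothelial markers 5, and of 6 choroid plexus markers 3, with none falling. Their summed signals were 33958 and 36024 against 45135 and 46750, 7542 and 8282 against 10939 and 10435, and 42593 and 42699 against 49844 and 46249. The mesenchymal count was 3 without control 1 and 2 without knockout 2, the endothelial count 0 without control 1 or knockout 1 and 1 without knockout 2, and the choroid plexus count 1 without either knockout. Each of these 3 counts was 1 without the variance trend. None of the 4 tested erythroid markers passed in limma, 1 of them having an unadjusted p under 0.05, nor did Pomc, the 1 tested pituitary marker (adjusted p = 0.082). The part of these shifts in the changes of Myt1, Myt1l, St18, Scrt1 and Scrt2 was not tested, nor their part in the signals of Rest, which non-neural cells express.

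Likeness over the 4 arrays was measured as the Euclidean distance between log2 values centred on each gene's mean, over 12489 genes at their brightest probe sets. Nearest to Myt1l were Resf1 (distance 0.0283; log2 change -0.57) and Clmp (0.0291; -0.57). Nearest to Myt1 were Lmbr1l (0.0415; -0.48) and Shb (0.0415; -0.41). For Insm1 they were Mrpl9 (0.0163; 0.16) and Gm20559 (0.0251; 0.15), and for Rest Hrh3 (0.0463; -0.14) and Cnksr2 (0.0609; -0.12). With 4 arrays, many genes can share such a pattern.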

How the data were processed

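What the authors deposited are probe set intensities in linear units for 45101 probe sets on 4 arrays. The submitters' processing notes name MAS5 version 5.0. The trimmed mean (2% at either end) was 1000 on every array. MAS5 scales each array by 1 factor, so a shift of most transcripts would be removed. Detection calls were not used. The genome build behind the probe sets is not given in the sources used. Symbols came from the platform annotation, and all 9 members matched RefSeq symbols. Array controls (64 probe sets) were left out.

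Signals were transformed as log2(signal + 16). Probe sets with a mean above the 40th percentile (log2 7.41, signal 154.6) were fitted with limma 3.58.1 (R 4.3.3). The eBayes step used a variance trend, with 2 residual and 8.33 prior degrees of freedom, and p-values were adjusted by Benjamini-Hochberg over 27022 probe sets. Each gene took its brightest probe set. The number of arrays limits the precision. Tested on simulated data, the fit recovered 14% of 1.25-fold, 38% of 1.5-fold, 88% of 2-fold and 96% of 3-fold changes. Of its 133 calls 15 were false (11.3%), a share above the nominal one. Changes of about 1.5-fold, a size seen in several members, were thus often missed there. The members, the 5 gene lists and the 8 cell type lists were chosen with earlier results of these data known. List genes were named as up to 3 per direction by size of change among those past the threshold, and others as stated. Groups and replicate numbers came from the sample titles.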

Additional observations from a re-analysis of the deposited data

How the results depend on the processing

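The choices varied were the normalization (quantile, or centring on the median), the pseudocount (1 or 64), the filter (none, or the 60th percentile), the variance model (no trend, or robust), the threshold (0.1), the replicate number as a block, leaving out an array, and averaging all probe sets of each gene. Over 134 combinations of gene and alternative at the brightest probe set of the 9 genes, 123 kept their side of the threshold, among them all 15 each of Myt1l (-0.65 to -0.49) and St18 (0.57 to 0.63). Scrt2 lay below the filter at the 60th percentile and has no value there. With no variance trend 3114 probe sets changed instead of 6277, and 5 member probe sets instead of 9. In that fit the log2 changes of Myt1 (-0.44, adjusted p = 0.103), Scrt1 (-0.54, adjusted p = 0.0531) and Scrt2 (-1.23, adjusted p = 0.102) did not pass, nor did the second Myt1l probe set. With no filter 4317 probe sets changed, and Myt1 (-0.44, adjusted p = 0.0523) and both tested Scrt2 probe sets (-1.23, adjusted p = 0.102, and -1.08, adjusted p = 0.0666) did not pass. A list less Plekha1 was added after seeing the data. The cause was not tested. With an array left out, where the lone array of a group is taken to vary like the pair, 3132 to 5422 probe sets and 6 to 9 member probe sets changed, with log2 changes of -0.56 to -0.31 for Myt1, -0.61 to -0.46 for Scrt1 and -1.83 to -0.63 for Scrt2. Same-numbered arrays did not deviate together (r = 0.00283 over probe sets), so the numbers were not taken as pairs. With the replicate block 6844 probe sets and 9 member probe sets changed, and no call at the brightest probe sets of the members changed.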
